A study of Homo sapiens with 6 samples.

Results

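Glycosyltransferase genes of the Golgi were examined in OVCAR3 cells, a line of high-grade serous ovarian cancer, exposed to the CDK12/13 inhibitor THZ531. The genes were taken by name from the deposited expression table: all symbols made of B3GALT, B3GNT, B3GAT, B4GALT, B4GALNT, GALNT, ST3GAL, ST6GAL, MGAT or FUT and a number. This rule uses no measured value and found 72 genes among the 47577 loci of the table. Of these, 61 reached a normalized read count of 10 in 3 or more of the 6 libraries, a minimum that 17568 loci passed, 15278 of them with a symbol.

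PolyA plus RNA was sequenced from 3 cultures that received DMSO, the solvent, and from 3 cultures that received THZ531 at 200 nM for 6 h. All 6 cultures are of the same line, so the groups represent 1 tumor, and the 3 repeats of each group are labelled as biological. The sample titles, descriptions and treatment characteristic name THZ531, whereas the text of the treatment protocol names the related compound THZ1. The values are read counts over 1 size factor for each library, without correction for gene length, and rest on 53054048 to 70986130 reads counted on genes per library.

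The line was checked against defining markers. All 8 markers of serous epithelium (PAX8, WT1, MUC16, EPCAM, KRT7, KRT8, KRT18 and CLDN3) were above the minimum, with summed counts of 439645 to 450956 in DMSO and 559708 to 572253 in THZ531, although PAX8 itself was at 1161 to 1380 in THZ531 against 10645 to 11636 in DMSO. KRT7, KRT8 and KRT18 made up most of both sums and were higher in THZ531, as were EPCAM and CLDN3. MUC16 was also lower, with means of 4598 in DMSO and 3334 in THZ531, and the groups overlapped for WT1. Of 4 fibroblast markers 2 passed the minimum, and their list summed to 988.6 to 1078 in DMSO and 2122 to 2409 in THZ531. COL1A1 made up nearly all of that sum, and the defining markers DCN and LUM were at 0 in every THZ531 library. The 3 endothelial markers summed to 162 to 299 over all libraries. Of the 3 leukocyte markers 2 passed the minimum, CD68 at 380 to 460 and PTPRC at 18.2 to 52.7, with sums of 407 to 496 in DMSO and 404 to 489.9 in THZ531, and the T cell marker CD3E was at 0 throughout. The part of such signals in the values below was not tested. In bulk RNA, fewer cells of a kind and less RNA per cell cannot be told apart.

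Glycosyltransferases of the Golgi build the sugar chains of secreted and membrane proteins and of glycolipids, each adding 1 kind of sugar in 1 kind of bond. GALNT enzymes start the O-linked chains of mucins on serine or threonine, MGAT enzymes set the branches of N-linked chains on asparagine, and B3GNT and B4GALT enzymes lengthen chains by alternating N-acetylglucosamine and galactose. Sialyltransferases and fucosyltransferases then cap the chains, which produces blood group antigens and selectin ligands, and a separate set of enzymes builds the linker that joins glycosaminoglycans to proteoglycans. Altered branching and capping are long-known features of epithelial cancers.

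After 6 h of THZ531, 16 of the 61 genes were lower and 5 were higher. A gene was called where limma gave a fold change of 1.5 or more and an unadjusted p no higher than 0.05, fitted on log2(value + 1) over all 17568 loci, and fold changes below are on this scale as THZ531 minus DMSO. The calls amounted to 34.4% of the genes, 26.2% lower and 8.20% higher. Among all loci tested 39.5% were called, 23.9% lower and 15.7% higher, and among loci with a symbol 23.7% and 13.3%, so the share of lower genes was near the background. FUT2 and FUT6 passed the minimum only through DMSO, where they are high, so that their lower values in THZ531 follow in part from the filter. With a minimum of 50, which leaves out both and B3GALT2, 13 genes were lower. The share of all loci at that minimum was not computed. The median log2 fold change of the 61 genes was -0.09, against -0.01 over all loci and -0.02 over loci with a symbol. The DMSO and THZ531 libraries did not overlap for 25 genes with lower and 17 genes with higher values in THZ531, while 35.7% of all loci were apart downward and 36% upward. All 21 called genes also reached an adjusted p (limma, Benjamini-Hochberg) of at most 0.05. With the adjusted p in place of the unadjusted one, at the same fold change, 38.8% of all loci were called. The p-values measure the spread between these cultures.

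**Figure D1:**
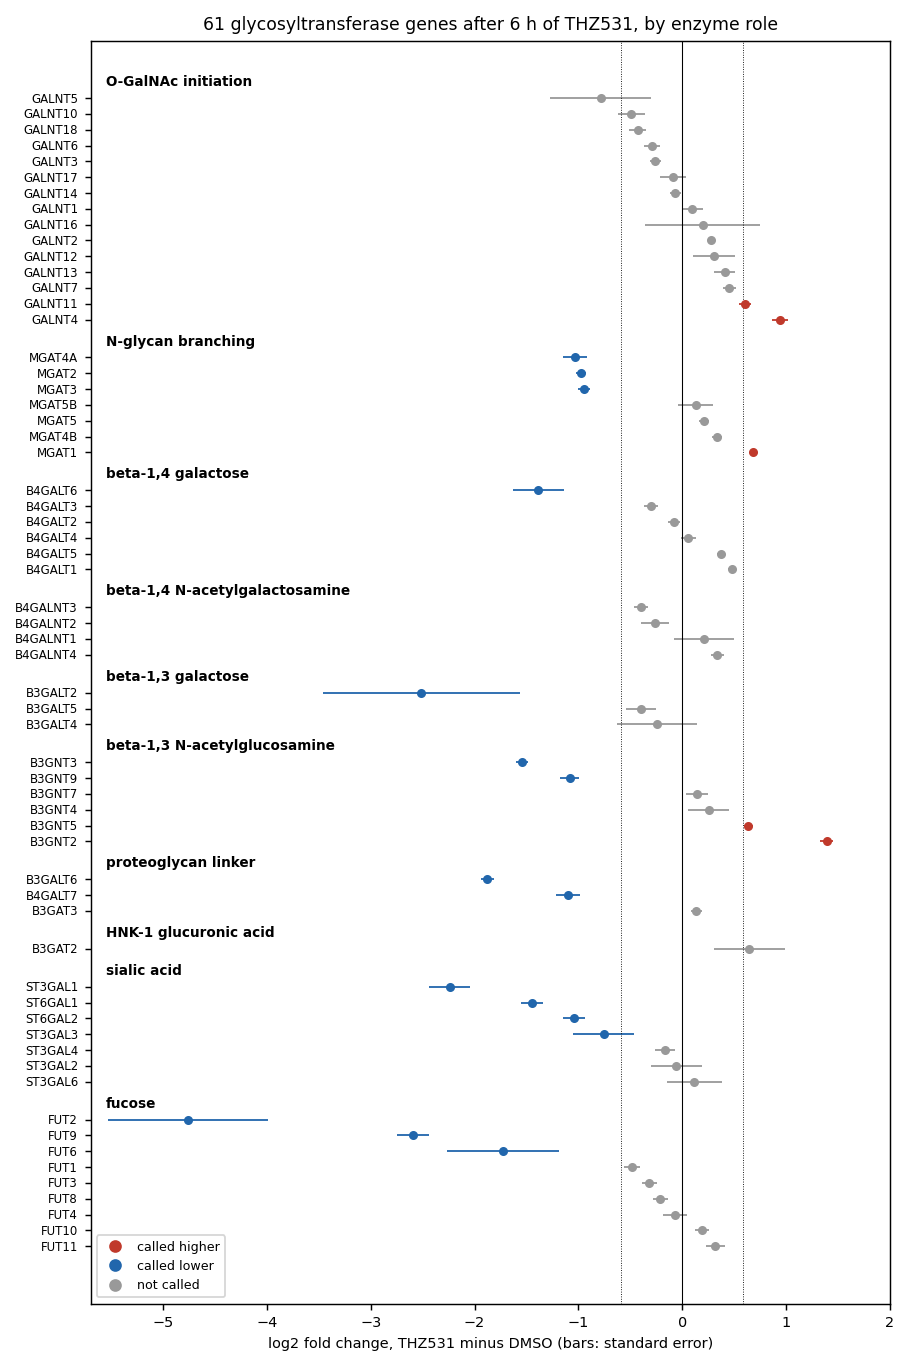
Log2 fold change (THZ531 minus DMSO, x axis) of the 61 genes, ordered by enzyme role, with bars of 1 standard error from limma on 3 and 3 libraries; dotted lines mark a fold change of 1.5. The genes called lower reach -4.76 (FUT2), while the highest is B3GNT2 at 1.39.

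The enzymes that cap chains with sialic acid showed 4 lower genes and none higher among the 7 above the minimum, with a median of -0.76. The lower genes were 57.1% of this role, against 23.9% of all loci, and no role was tested as a set. ST6GAL1, which adds sialic acid in α2,6 bond to the galactose of N-linked chains, was counted at 779, 733 and 643 in DMSO and at 271, 241 and 275 in THZ531. All 3 THZ531 libraries were below all 3 DMSO libraries, and the log2 fold change was -1.45 (SE 0.10, limma adjusted p = 4.7e-09). Its paralog ST6GAL2, which prefers other acceptors, was at 591, 635 and 587 in DMSO and at 261, 286 and 336 in THZ531, a log2 fold change of -1.04 (SE 0.11, limma adjusted p = 3.4e-07). Both ST6GAL genes therefore fell without overlap of the groups.

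ST3GAL1, which caps the core galactose of O-linked chains, was counted at 245, 187 and 235 in DMSO and at 44.1, 43.2 and 51.2 in THZ531. This was the steepest fall of the sialyltransferases, 4.72-fold (log2 fold change -2.24, SE 0.20, limma adjusted p = 5.1e-08). ST3GAL3, which acts mostly on type 1 chains, was at 61.9, 77 and 68.6 in DMSO and at 60.5, 33 and 33 in THZ531. Here the highest THZ531 library lay just below the lowest of DMSO, and the call (log2 fold change -0.76, SE 0.29, limma adjusted p = 0.032) was lost without DMSO replicate 2 and without THZ531 replicate 2 or 3. Leaving out each library in turn gave log2 fold changes between -1.04 and -0.61.

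The other 3 genes did not pass the test. ST3GAL2, another O-chain enzyme, was at 110, 71.4 and 94.2 in DMSO and at 80.6, 69.3 and 117 in THZ531, so that the groups overlapped (log2 fold change -0.06, SE 0.24). ST3GAL4, which sialylates N-linked and type 2 chains, was at -0.17 (SE 0.10), and ST3GAL6 at 0.12 (SE 0.27). ST3GAL5, the synthase of the ganglioside GM3, was below the minimum, with at most 7.98.

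Because values per gene depend on transcript length, levels of different enzymes were compared per kb of the Ensembl canonical transcript (GENCODE v44). The summed level of the 7 sialyltransferases was 756 ± 18.4 per kb in DMSO and 531 ± 63.3 in THZ531 (SD, n = 3). ST3GAL4 held 55.3% ± 0.606 of this sum in DMSO and 70.4% ± 3.40 in THZ531, while the share of ST6GAL1 went from 20.6% ± 1.51 to 10.8% ± 1.12. ST3GAL1 held 4.38% ± 0.595 in DMSO and 1.30% ± 0.0438 in THZ531. The order of the top 3, ST3GAL4, ST6GAL1 and ST6GAL2, was the same in both groups, and shares were described without a test.

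ST6GAL1 (chr3:186930526-187078553 of hg38, plus strand) also holds a locus without a symbol within its first intron, at chr3:186932535-186934393, or 1701 to 3559 nt behind the 5′ splice site of an intron of 32950 nt. This locus was counted at 9.53, 6.5 and 6.38 in DMSO and at 60.5, 46.6 and 46.6 in THZ531, opposite to the gene around it. It was below the minimum in all 3 DMSO libraries and passed only through THZ531, so it had to be higher there, and its log2 fold change of 2.63 (SE 0.40) is a description. The table gives no strand for it. The letters AATAAA, the usual polyadenylation signal, occur 1 time on the strand of the gene between the splice site and the end of the locus, 2531 nt into the intron and inside the locus. They are shown in capitals, 5′ to 3′, within chr3:186933345-186933390 of hg38:

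ST6GAL1 intron 1: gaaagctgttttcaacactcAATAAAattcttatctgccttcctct

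Of 17 windows of 1859 nt laid end to end along this intron, 13 (76.5%) hold the same letters on the strand of the gene, so a match is common and describes only the sequence. In all, 47 loci without a symbol lie within the 61 genes, 7 of them passed the minimum, and 3, that of ST6GAL1 included, were called higher and none lower by limma. Among all 2290 tested loci without a symbol 56.4% were called, 31.1% higher and 25.3% lower. The other two were an intron 6 locus of GALNT18 (158, 213 and 277 in DMSO, 355, 343 and 327 in THZ531, log2 fold change 0.69, SE 0.17) and a locus that covers an exon of GALNT17 (46, 45.5 and 32.7 in DMSO, 88.2, 51.2 and 107 in THZ531, log2 fold change 0.92, SE 0.30). Without THZ531 replicate 3, only 1 locus was called. The locus in ST6GAL1 fell below the minimum and left the test whenever any THZ531 library was left out. The locus in ST6GAL1 has a mean under the 50 fixed for naming and was singled out after its values were seen.

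**Figure D2:**
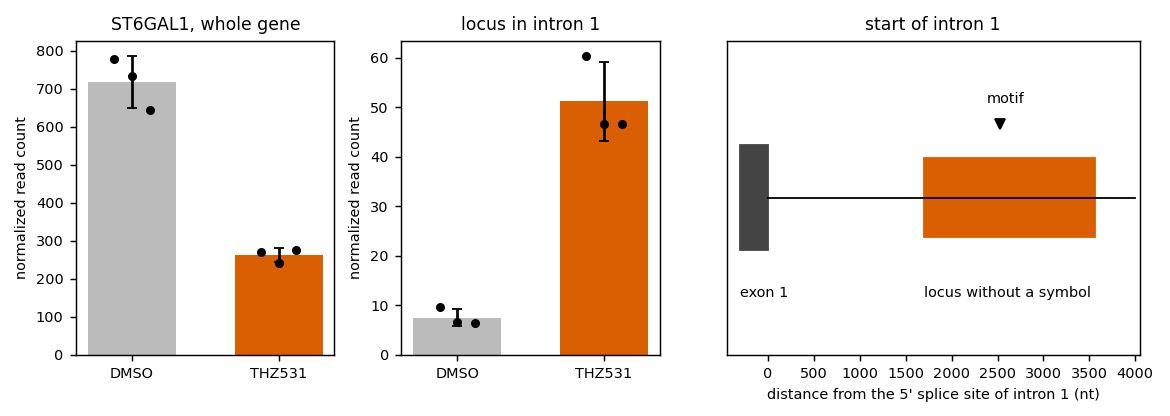
Normalized read count of ST6GAL1 and of the locus in its intron 1 (bars: mean of 3 libraries, error bars: SD, points: libraries), and a map of the start of the intron in nt from the 5′ splice site, where the triangle marks the motif. The gene lies at 643 to 779 in DMSO and 241 to 275 in THZ531, and the locus at 6.38 to 9.53 and 46.6 to 60.5.

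Of 9 fucosyltransferases above the minimum, 3 were called lower (33.3%, against 23.9% of all loci) and none higher, and the median was -0.32. FUT2 and FUT6, 2 of the 3, were below the minimum in all THZ531 libraries and passed it through DMSO alone, so their calls are given as a description. FUT2 (chr19:48695971-48705951), the secretor enzyme that makes the H antigen of secretions, was at 71.5, 48.3 and 55.1 in DMSO and at 0, 0 and 9.1 in THZ531. These values stand for 90, 52 and 69 reads in DMSO and for 0, 0 and 8 in THZ531. The fitted log2 fold change of -4.76 (SE 0.77) depends on the added pseudocount. With 0.1 or 10 in place of 1, FUT2 was at -6.99 and -2.45, and edgeR on recovered reads gave -4.20.

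FUT9, which makes the Lewis x structure, fell 6.04-fold. It was at 657, 666 and 762 in DMSO and at 147, 110 and 91 in THZ531, with the groups far apart (log2 fold change -2.60, SE 0.16, limma adjusted p = 5.3e-10). FUT6, an α1,3 fucosyltransferase of liver and plasma, was at 15.9, 19.5 and 34.3 in DMSO and at 7.56, 7.96 and 3.41 in THZ531. It rests on 20 to 43 reads per DMSO library and 3 to 7 per THZ531 library (log2 fold change -1.72, SE 0.54). FUT6 is close in sequence to FUT3 and FUT5, and how the counting divided reads between them is not known here.

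FUT3, the Lewis enzyme, was at -0.32 (SE 0.07), and FUT1, which makes the H antigen of red cells, at -0.48 (SE 0.08), just short of a fold change of 1.5. FUT8, the sole enzyme of core fucose on N-linked chains, was at -0.21 (SE 0.08). FUT4, another α1,3 enzyme, was at 380, 346 and 307 in DMSO and at 310, 321 and 353 in THZ531, with overlapping groups (log2 fold change -0.07, SE 0.12). FUT10 and FUT11, relatives of the α1,3 enzymes, were at 0.19 (SE 0.07) and 0.32 (SE 0.09). Per kb, FUT3 had the highest level of the 9 in both groups, 27.1% ± 0.470 of their sum in DMSO and 24.6% ± 0.582 in THZ531 (SD, n = 3). FUT10 and FUT11 passed FUT1 in THZ531, at 20.3% ± 1.10 and 20.6% ± 0.623 against 16.2% ± 0.439, and the ranges of FUT10 and FUT11 overlap. The share of FUT9 went from 3.49% ± 0.310 to 0.665% ± 0.197. FUT5 and FUT7 stayed below the minimum.

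In the linker of proteoglycans, xylose is followed by 2 galactoses and a glucuronic acid, added in turn by B4GALT7, B3GALT6 and B3GAT3. The first 2 of the 3 genes were lower, against 23.9% of all loci. B3GALT6 (chr1:1232237-1235041) was at 4160, 3784 and 3817 in DMSO and at 1000, 1100 and 1101 in THZ531, a 3.67-fold fall with the groups far apart (log2 fold change -1.88, SE 0.06, limma adjusted p = 4.2e-13). B4GALT7 was at 564, 672 and 554 in DMSO and at 295, 242 and 297 in THZ531 (log2 fold change -1.10, SE 0.12, limma adjusted p = 3.7e-07). B3GAT3 was at 1647, 1724 and 1725 in DMSO and at 1940, 1873 and 1787 in THZ531, somewhat higher without reaching a fold change of 1.5 (log2 fold change 0.14, SE 0.06, limma adjusted p = 0.039).

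The level of the 3 linker genes together was 2919 ± 39.0 per kb in DMSO and 1830 ± 34.0 in THZ531 (SD, n = 3). B3GALT6 held 47.9% ± 2.19 of it in DMSO and 20.8% ± 1.49 in THZ531, and B3GAT3 40.1% ± 1.47 and 70.2% ± 1.62. B3GALT6 and B3GAT3 thus changed places, with no overlap between the libraries of the 2 groups in either share. The related B3GAT2, which makes the HNK-1 epitope of neural glycoproteins, was at 25.4, 33.4 and 21.5 in DMSO and at 36.5, 56.8 and 35.3 in THZ531. It was not called (log2 fold change 0.65, SE 0.34, limma adjusted p = 0.10), except as higher in limma without a variance trend (unadjusted p = 0.046). Its partner in that role, B3GAT1, was listed at 0 in all libraries.

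The β1,3 N-acetylglucosaminyltransferases moved in both directions, with 2 lower and 2 higher of the 6 genes above the minimum and a median of 0.20. Each direction held 33.3% of the genes, against 23.9% of all loci lower and 15.7% higher. B3GNT3 (chr19:17795135-17813576), which extends core 1 O-chains, was at 2540, 2497 and 2582 in DMSO and at 890, 873 and 844 in THZ531. It fell 2.92-fold (log2 fold change -1.55, SE 0.06, limma adjusted p = 2.0e-12). B3GNT2 (chr2:62196115-62224731), the main enzyme of polylactosamine, was at 1018, 1091 and 904 in DMSO and at 2625, 2637 and 2622 in THZ531. It rose 2.62-fold (log2 fold change 1.39, SE 0.07, limma adjusted p = 3.9e-11), the largest rise among the 61 genes. The level per kb of transcript of B3GNT3 was thus above that of B3GNT2 in DMSO and below it in THZ531.

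B3GNT5, which starts lacto-series glycolipids, was at 3943, 4461 and 4266 in DMSO and at 6605, 6636 and 6451 in THZ531 (log2 fold change 0.64, SE 0.05, limma adjusted p = 5.5e-09). B3GNT9, whose acceptor is little known, was at 767, 714 and 732 in DMSO and at 363, 314 and 369 in THZ531 (log2 fold change -1.08, SE 0.09, limma adjusted p = 4.0e-08). For both the groups were apart. B3GNT9 shares exon bases with PHAF1 on the other strand (log2 fold change 0.61), and whether the counting used the strand is not stated. B3GNT7, an enzyme of keratan sulfate, was at 422, 453 and 485 in DMSO and at 437, 531 and 537 in THZ531, with overlapping groups (log2 fold change 0.14, SE 0.10). B3GNT4 was at 0.25 (SE 0.20), and B3GNT6 and B3GNT8 were below the minimum.

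Per kb, B3GNT5 and B3GNT3 had near levels in DMSO, 36.9% ± 1.34 and 33.9% ± 1.33 of the sum of the 6 genes (SD, n = 3). In THZ531 the order was B3GNT5 with 49.99% ± 0.509, B3GNT2 with 29.8% ± 0.0979 and B3GNT3 with 10.1% ± 0.232. The sum itself was 2782 ± 76.1 per kb in DMSO and 3196 ± 15.9 in THZ531.

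**Figure D3:**
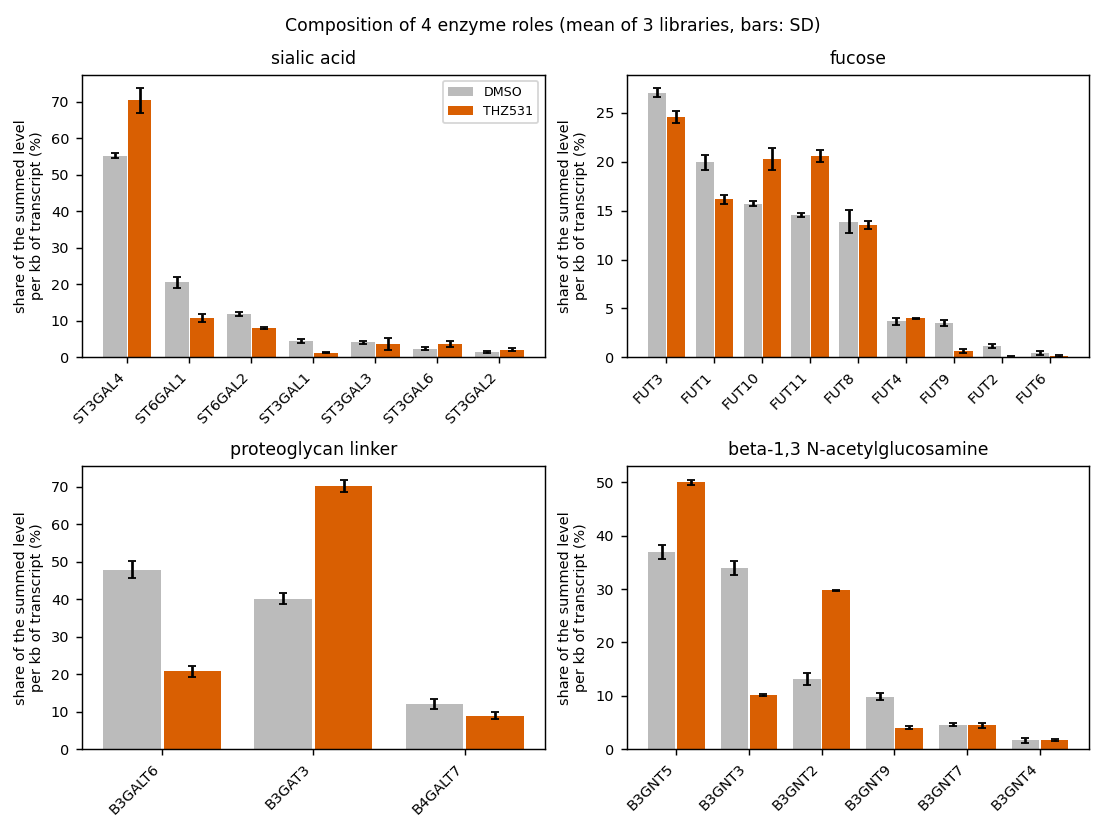
Share (%, y axis) of each gene in the level per kb of transcript summed over its role, for sialic acid, fucose, the proteoglycan linker and β1,3 N-acetylglucosamine (mean of 3 libraries, bars: SD). ST3GAL4 goes from 55.3% to 70.4%, B3GALT6 from 47.9% to 20.8% and B3GNT2 from 13.1% to 29.8%.

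The 250 bases before the transcription start (RefSeq, GRCh38.p14, 5′ to 3′) are shown for 3 of these genes, as B3GNT3 and B3GNT2 of 1 role changed in opposite directions and B3GALT6 had the smallest adjusted p of the 61. They lie at chr19:17794888-17795137, chr2:62195865-62196114 and chr1:1231987-1232236, all on the plus strand. Capitals mark the GC box GGGCGG, the box CCAAT and the box TATAAA, on either strand, and adjoining or overlapping matches run together:

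B3GNT3: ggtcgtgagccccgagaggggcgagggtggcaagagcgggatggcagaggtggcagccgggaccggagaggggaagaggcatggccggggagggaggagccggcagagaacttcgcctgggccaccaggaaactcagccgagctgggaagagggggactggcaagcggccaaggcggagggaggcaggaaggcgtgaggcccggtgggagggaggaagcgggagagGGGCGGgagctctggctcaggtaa

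B3GNT2: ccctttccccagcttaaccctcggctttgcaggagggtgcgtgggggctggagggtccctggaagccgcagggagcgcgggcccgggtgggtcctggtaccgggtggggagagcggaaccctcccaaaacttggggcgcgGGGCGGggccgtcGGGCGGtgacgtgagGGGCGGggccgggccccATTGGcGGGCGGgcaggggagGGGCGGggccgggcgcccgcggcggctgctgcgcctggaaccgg

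B3GALT6: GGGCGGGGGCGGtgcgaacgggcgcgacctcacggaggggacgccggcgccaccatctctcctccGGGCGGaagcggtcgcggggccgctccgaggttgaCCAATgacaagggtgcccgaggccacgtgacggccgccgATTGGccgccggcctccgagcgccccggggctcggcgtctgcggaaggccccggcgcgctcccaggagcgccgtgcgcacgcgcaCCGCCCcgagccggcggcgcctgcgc

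B3GNT3 holds 1 GC box, B3GNT2 holds 5 and a CCAAT box, and B3GALT6 holds 4 and 2 CCAAT boxes. Over 34943 such windows of the genome 42.5% hold a GC box, 32.0% a CCAAT box and 10.8% a TATAAA box. A window was found for 45 of the 61 genes. The genome windows cover all listed starts, whereas each of these genes gave a single start, so the shares are not alike. A GC box was held by 3 of 4 windows of genes called higher, by 8 of 11 called lower and by 26 of 30 not called. The window of GALNT11, called higher and without a GC box, lies 49363 nt from the canonical start. Those of GALNT13 and MGAT5B, not called, lie 394021 and 4243 nt from theirs. A CCAAT box was held by 1, 3 and 6 windows of these classes, and TATAAA by none of the 45. A match describes the letters only.

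Of the 7 enzymes of N-glycan branching above the minimum, 3 were lower (42.9%) and 1 higher (14.3%), with a median of 0.13. Among all loci 23.9% were lower and 15.7% higher. MGAT1, which opens the way to all complex chains, was at 7152, 7114 and 6972 in DMSO and at 11462, 11734 and 10987 in THZ531. It rose 1.61-fold (log2 fold change 0.69, SE 0.04, limma adjusted p = 1.9e-10). MGAT2, which acts later and starts the second antenna, was at 4082, 3899 and 3911 in DMSO and at 1986, 1998 and 2075 in THZ531 (log2 fold change -0.97, SE 0.05, limma adjusted p = 4.2e-11). MGAT1 and MGAT2 thus differed in direction, each with the groups apart.

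MGAT3, which adds the bisecting residue, was at 2511, 2799 and 2552 in DMSO and at 1369, 1317 and 1381 in THZ531 (log2 fold change -0.95, SE 0.06, limma adjusted p = 5.3e-10). MGAT4A, which adds the β1,4 branch, was at 421, 420 and 458 in DMSO and at 212, 196 and 225 in THZ531 (log2 fold change -1.04, SE 0.11, limma adjusted p = 6.5e-07). Its paralog MGAT4B was not called, at 0.34 (SE 0.05), and held 53.8% ± 1.67 of the level per kb of the 7 genes in DMSO and 63.1% ± 0.520 in THZ531 (SD, n = 3), while MGAT4A held 0.757% ± 0.0667 and 0.341% ± 0.0224. MGAT5, which adds the β1,6 branch, was at 0.21 (SE 0.05). Its relative MGAT5B was at 179, 150 and 180 in DMSO and at 220, 188 and 154 in THZ531, with overlapping groups (log2 fold change 0.13, SE 0.17). The share of MGAT2 went from 21.6% ± 0.491 to 10.2% ± 0.251, and that of MGAT1 from 12.3% ± 0.433 to 18.3% ± 0.696. MGAT4C was below the minimum.

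The enzymes that start O-linked chains were the largest role, with 15 of 18 genes above the minimum, and 2 were higher and none lower, with a median of 0.10. The higher genes were 13.3% of this role, while 15.7% of all loci were higher and 23.9% lower. GALNT4, which glycosylates already started mucins, was at 840, 833 and 938 in DMSO and at 1776, 1713 and 1534 in THZ531 (log2 fold change 0.94, SE 0.07, limma adjusted p = 9.9e-09). GALNT4 lies within POC1B on the same strand, and POC1B had a log2 fold change of -0.35. GALNT11, which acts on Notch and on receptors of the LDL family, was at 1139, 1165 and 1088 in DMSO and at 1744, 1799 and 1619 in THZ531, with the groups apart. Its log2 fold change of 0.61 (SE 0.06, limma adjusted p = 2.8e-07) was just past the fold threshold, and the call was lost without DMSO replicate 3 (lowest over the omissions 0.57), without THZ531 replicate 2 and with scaling to the upper quartile.

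GALNT14 was nearest to no difference, at 2244, 2497 and 2456 in DMSO and at 2359, 2222 and 2287 in THZ531 (log2 fold change -0.07, SE 0.05). Values above 0 and short of a fold change of 1.5 were found for GALNT7 (0.46), GALNT13 (0.41), GALNT12 (0.31), GALNT2 (0.28), GALNT16 (0.20) and GALNT1 (0.10). GALNT5 was at -0.79 (SE 0.49), past that fold but not past the p threshold. Values below 0 and short of the fold were found for GALNT10 (-0.49), GALNT18 (-0.43), GALNT6 (-0.29), GALNT3 (-0.26) and GALNT17 (-0.09). Per kb, GALNT2, a broadly acting isoform, held the largest share in both groups, 33.3% ± 0.359 in DMSO and 37.0% ± 0.118 in THZ531 (SD, n = 3), ahead of GALNT3 with 19.4% ± 0.693 and 14.8% ± 0.777. The summed level was 6106 ± 16.6 and 6674 ± 121 per kb. GALNT8, GALNT9 and GALNT15 were below the minimum.

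Among the 6 enzymes that add β1,4-linked galactose, only B4GALT6 was called by limma (16.7%, against 39.5% of all loci), and the median was -0.01. B4GALT6, a lactosylceramide synthase, was at 124, 99.3 and 138 in DMSO and at 45.3, 35.2 and 56.9 in THZ531 (log2 fold change -1.39, SE 0.25, limma adjusted p = 0.00011). Its paralog B4GALT5, which makes the same lipid, was at 0.37 (SE 0.04). B4GALT5 held 28.3% ± 0.551 of the level per kb of the 6 genes in DMSO against 0.584% ± 0.0933 for B4GALT6 (SD, n = 3). B4GALT1, the main galactosyltransferase of N-linked chains, was at 0.48 (SE 0.04), below the fold threshold. B4GALT3 was at -0.30 (SE 0.07), and B4GALT2 at -0.08 (SE 0.06). B4GALT4 was at 946, 922 and 912 in DMSO and at 1038, 896 and 962 in THZ531, with overlapping groups (log2 fold change 0.06, SE 0.07).

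None of the 4 β1,4 N-acetylgalactosaminyltransferases was called by limma, edgeR or DESeq2, while limma called 39.5% of all loci. B4GALNT1, the synthase of gangliosides GM2 and GD2, was at 38.1, 52 and 51.9 in DMSO and at 69.3, 56.8 and 41 in THZ531, with overlapping groups (log2 fold change 0.21, SE 0.29). B4GALNT4 was at 0.34 (SE 0.07) and its relative B4GALNT3 at -0.40 (SE 0.07), both enzymes of LacdiNAc. B4GALNT2, which makes the Sda antigen, was at -0.26 (SE 0.13).

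The β1,3 galactosyltransferases were scarce, with a summed level of 37.7 ± 0.789 per kb in DMSO and 28.1 ± 4.15 in THZ531 (SD, n = 3). B3GALT2, which acts on N-acetylglucosamine, was at 11.1, 9.28 and 17.6 in DMSO and at 0, 11.4 and 0 in THZ531, so the groups overlapped. Its log2 fold change of -2.52 (SE 0.95, limma adjusted p = 0.028) rests on 10 to 22 reads per DMSO library and on 10 reads in 1 THZ531 library. The call was lost in edgeR, in DESeq2, in limma without a variance trend and without THZ531 replicate 1 or 3. Without DMSO replicate 1 or 3 or THZ531 replicate 2, B3GALT2 fell below the minimum and was not tested. Of the omissions, only that of DMSO replicate 2 kept the call. B3GALT5, the enzyme of type 1 chains, was at -0.40 (SE 0.15), and B3GALT4, which makes ganglioside GM1, was at 31.8, 27.8 and 19.1 in DMSO and at 18.9, 19.3 and 27.3 in THZ531 (log2 fold change -0.24, SE 0.39). B3GALT1 was below the minimum.

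**Figure D4:**
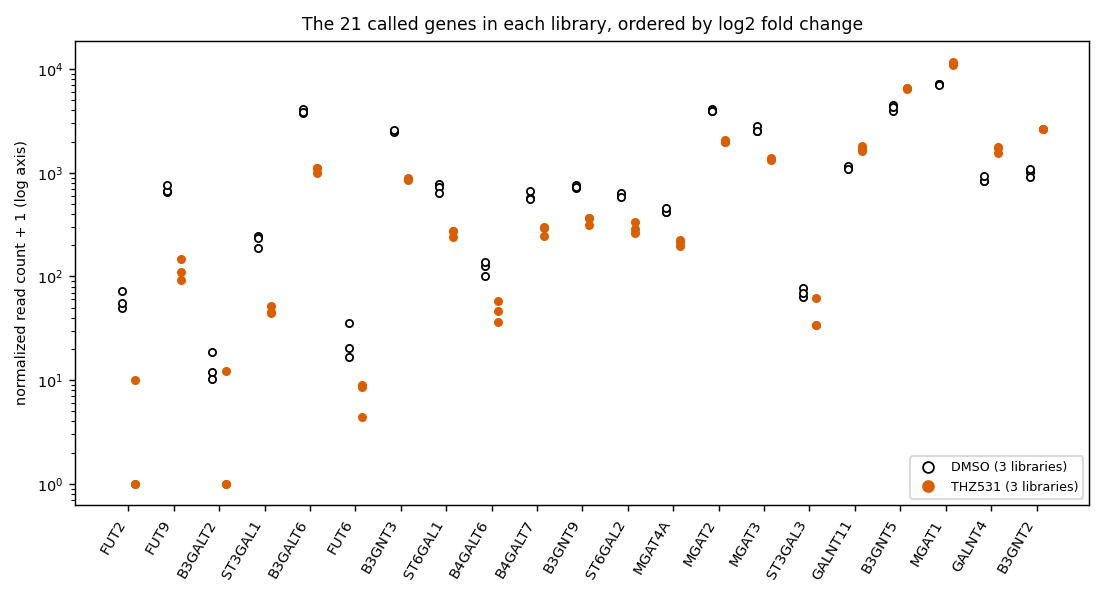
Normalized read count plus 1 (log axis) of the 21 called genes in each of the 3 DMSO (open) and 3 THZ531 (filled) libraries, ordered from the lowest to the highest log2 fold change. The groups are apart for all genes shown except B3GALT2, and ST3GAL3 is apart by a small margin.

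The calls of the 61 genes were nearly the same on read counts recovered from the deposited values. edgeR and DESeq2 each called 5 higher and 15 lower, and 20 of the 21 limma calls were shared with each of them, B3GALT2 being the exception. Shares of all loci called by these tools were not computed. The genes just inside the fold threshold were GALNT11 (0.61), B3GNT5 (0.64) and MGAT1 (0.69), and those just outside were B4GALT1 (0.48), FUT1 (-0.48) and GALNT10 (-0.49). Another scaling moved more calls. When every library was scaled to the same total, which shifts all log2 fold changes by -0.24, MGAT1, B3GNT5 and GALNT11 lost their calls, so that 2 genes were higher and 21 lower, against 9.38% and 32% of all loci. When scaled to RPL34, a shift of -0.49, B3GNT2 was the only 1 of the 5 still called higher, and 29 genes were lower, while 6.14% of all loci were higher and 42.8% lower.

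Calls were found at short and long spans. Of 22 genes spanning under 20 kb, 8 were lower and 1 higher, with a median of -0.27, while all 6225 such genes had 22.9% lower, 13.9% higher and a median of 0.00. Of 20 genes spanning 20 to 100 kb, 3 were lower and 4 higher (median 0.09), while all such genes had 24.1% lower, 13.2% higher and a median of -0.02. Of 19 genes over 100 kb, 5 were lower and none higher in limma (median -0.21), while all such genes had 24.4% lower, 12.3% higher and a median of -0.07. Of the 5 genes with a single exon, MGAT2 and B3GALT6 were lower, GALNT4 was higher, and B3GALT4 and FUT4 were not called. All 633 single-exon genes had 19.3% lower, 31.1% higher and a median of 0.25. These are descriptions across genes, which are not replicates.

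**Figure D5:**
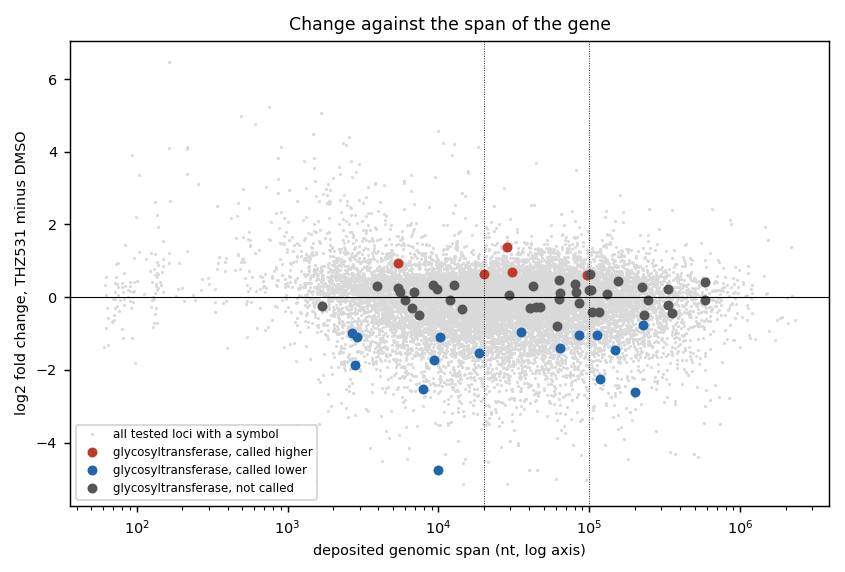
Log2 fold change (THZ531 minus DMSO) against the genomic span given in the table (nt, log axis) for the 61 genes in color and all tested loci with a symbol in grey; dotted lines mark 20 and 100 kb. Lower genes occur at all spans, with medians of -0.27, 0.09 and -0.21 in the 3 classes.

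Genes can share reads with neighbours where exons overlap. Of the 61 genes, 21 overlap another tested gene, 7 of them called, and B3GNT9 is the only called 1 whose canonical exons overlap those of the other. FUT2 lies inside the listed range of FTL on the same strand (log2 fold change of FTL 0.59), MGAT2 inside that of RPS29 on the other strand (0.55), and B3GALT2 inside CDC73 (0.73). B3GNT5 lies inside MCF2L2 on the other strand (-0.50), and ST3GAL3 overlaps KDM4A-AS1 on the other strand (-0.72). POC1B and PHAF1 are given above, and the part of shared reads in these calls was not tested.

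Other genes of the pathway were grouped in 4 lists. The assembly of the N-glycan precursor and its transfer to protein, 33 genes, had 3 higher (9.09%) and 2 lower (6.06%) with a median of 0.16, against 15.7% and 23.9% of all loci and their median of -0.01. TUSC3, a subunit of oligosaccharyltransferase, was the largest rise, at 4579, 4254 and 4281 in DMSO and 6975, 6988 and 6618 in THZ531 (log2 fold change 0.65). DOLK, which makes dolichol phosphate, was the largest fall, at 2691, 2691 and 2667 in DMSO and 1008, 990.1 and 1150 in THZ531 (log2 fold change -1.36). This list was the only one of the 4 with a positive median.

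Of 38 genes that make or carry the sugar donors, 2 were higher (5.26%) and 10 lower (26.3%), with a median of -0.25. SLC35D1, a transporter of UDP-sugars, rose from 200.1, 198 and 191 to 462, 432 and 478 (log2 fold change 1.22), and GFPT2, an entry enzyme of the hexosamine pathway, fell from 344, 309 and 385 to 135, 107 and 111 (log2 fold change -1.55). Of 41 other glycosyltransferases 3 were higher (7.32%) and 7 lower (17.1%), with a median of -0.13. POMGNT2, which extends O-mannose on dystroglycan, rose from 2162, 1841 and 1863 to 4577, 4204 and 4341 (log2 fold change 1.16). The lowest value was that of MFNG, which extends O-fucose on Notch, at 20.6, 21.3 and 41.5 in DMSO and at 8.82, 2.27 and 4.55 in THZ531 (log2 fold change -2.28). MFNG passed the minimum only through DMSO, so this is a description. Of 23 Golgi mannosidase and trafficking genes 3 were higher (13.0%) and 5 lower (21.7%), with a median of -0.28. GNPTG, a subunit of the mannose 6-phosphate enzyme, rose from 801, 748 and 686 to 1341, 1274 and 1266 (log2 fold change 0.80), and GOLPH3L, a Golgi membrane protein, fell from 2037, 2256 and 2319 to 649.9, 608 and 609 (log2 fold change -1.82). Over all 4 lists, 135 genes were tested, and 11 were higher (8.15%) and 24 lower (17.8%), against 15.7% and 23.9% of all loci.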

How the data were processed

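The deposited table holds, per the authors' methods, reads mapped to hg38 with STAR, counted with featureCounts on the FAST DB annotation and normalized with DESeq2 by the authors. The authors thus deposited a signal per locus, made by dividing each count by the size factor of its library. The submitters' processing notes name STAR 2.7.5a. The share of values that were whole reads after multiplication by the size factor (tolerance 0.01) was 100% per library, and the reads recovered in this way were tested with edgeR 4.0.16 (quasi-likelihood, TMM) and DESeq2 1.42.0. The size factors were 1.26, 1.078 and 1.253 in DMSO and 0.794, 0.88 and 0.879 in THZ531.

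The main test was limma 3.58.1 with a variance trend in R 4.3.3, with a pseudocount of 1, no covariates, and Benjamini-Hochberg adjustment over all 17568 loci. Libraries were grouped by their titles, and the labels name a stranded mRNA kit without giving the strand setting of the counting. The fits were also run on simulated data in which few loci changed and rises and falls were drawn alike. The real data differ in both respects, so that run checks only the code. Every gene above the minimum was named, and values per library were given for called genes, for the gene nearest 0 in each role and, in each further list, for the called genes that rose and fell most. Genes and lists were chosen with earlier results of these data known. Spans and coordinates are those of the table, and exons, strands and transcript lengths come from GENCODE v44. Alternatives were pseudocounts of 0.1 and 10, no minimum and a minimum of 50, libraries scaled to RPL34, to the upper quartile or to 1 total, a replicate block, a fold change of 2, an adjusted p, no variance trend in limma, both count tools and leaving out each library in turn, with the minimum applied again to the other 5.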

Additional observations from a re-analysis of the deposited data

How the results depend on the processing

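No log2 fold change of a called gene changed sign under any alternative run. A fold change of 2 left 1 glycosyltransferase higher and 13 lower, and in the 4 lists 2 higher and 13 lower. Shares of all loci were not computed at that fold, for the replicate block or for the fits that leave out 1 library. Those counts therefore have no background here. Scaling to the same total left 2 glycosyltransferases higher, 2 list genes higher and 45 lower, and gave medians by span of -0.51 under 20 kb, -0.15 for 20 to 100 kb and -0.45 over 100 kb. Scaling to RPL34 gave 1 glycosyltransferase higher and 29 lower, and 2 list genes higher and 66 lower. Leaving out 1 library gave 4 to 5 glycosyltransferases higher and 13 to 15 lower, 10 to 12 list genes higher and 23 to 26 lower, and 1 to 3 loci without a symbol called. Low genes and the locus in ST6GAL1 also left the test in some of these fits, because the minimum was applied again to the other 5 libraries. The counts of loci therefore need not hold the same loci.

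The replicate block gave 5 glycosyltransferases higher and 16 lower, 11 list genes higher and 25 lower, and 3 loci called. The deviations of same-numbered libraries correlated at 0.0017, 0.019 and -0.039, and only the libraries numbered 2 correlated best with their own number. The labels do not state whether same-numbered cultures were set up together, and such correlations cannot settle it.

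Groups of 3 limit the spread estimate, and FUT2, FUT6, B3GALT2 and ST3GAL3 rest on fewer than 100 reads per library. Normalized counts fix no absolute amount of RNA per cell, so changes are relative to the scaling used.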

Other observations

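Enzymes and transporters that supply the sugar donors were also looked at by sugar, a grouping made after the values were seen. Of 5 genes of the sialic acid donor, GNE, the first enzyme of its synthesis, was at 1212, 1148 and 1242 in DMSO and at 586, 622 and 581 in THZ531 (log2 fold change -1.01), and SLC35A1, which carries CMP-sialic acid into the Golgi, was at 659, 609.6 and 614 in DMSO and at 307, 347 and 405 in THZ531 (log2 fold change -0.84). Both fell, while CMAS (-0.39), NANP (0.03) and NANS (0.31) were not called. Of 5 genes of the fucose donor, the transporter SLC35C1 fell by 1.09 and the salvage kinase FCSK fell by 0.81 on the log2 scale, and FPGT (-0.38), GMDS (0.11) and GFUS (0.29) were not called. XYLT2, which adds the xylose that starts the proteoglycan linker, was at 3782, 3778 and 3970 in DMSO and at 1867, 1957 and 1943 in THZ531 (log2 fold change -0.999), whereas UXS1 (0.37) and UGDH (0.36), which make UDP-xylose and its precursor, were not called. In the galactose group 1 of 6 genes was lower, the kinase GALK2 (-0.75), and in the N-acetylglucosamine group UAP1 was higher (0.74) and GFPT2 lower (-1.55) of 6. SLC35A3 (0.58), GFPT1 (0.40), PGM3 (-0.02) and GNPNAT1 (-0.10) of that group were not called. Among all loci 23.9% were lower and 15.7% higher, and among the whole list of donor genes 26.3% and 5.26%.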
